A study of Homo sapiens with 12 samples.

Results

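The comparison described here set LMSU cells that carried a p53 hairpin, shRNA 1, against LMSU cells that carried a scramble hairpin. LMSU is a human gastric cancer cell line, and the labels give it the p53 mutation R175H. The members are 4 of the 12 libraries of the series, 2 with shRNA 1 and 2 with scramble, chosen by their column names and not by any measured value. All 4 were labelled as treated with doxycycline, a tetracycline that is widely used to switch on inducible hairpins, although the labels do not say that these hairpins were inducible. The labels mark the mutant protein as absent with shRNA 1 and as present with scramble. Another hairpin against p53, shRNA 2 (2 libraries, mutant marked absent), and a vector control (2 libraries, mutant marked present) were also treated with doxycycline and entered the same model, so that the 8 knockdown-arm libraries shared 1 estimate of spread. The remaining 4 libraries, from a knockout experiment without doxycycline, were used only in an alternative fit. All cells were LMSU in Ham's F-10 medium. The labels leave unsaid whether both libraries of each group are separate cultures, so the p-values below measure the spread between libraries, which may be technical. The study knocked down mutant p53 to see which transcripts follow it, and shRNA 1 against scramble addresses that question for 1 hairpin.

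Wild-type p53 is a transcription factor that answers DNA damage and other stresses by switching on genes for cell cycle arrest, DNA repair and cell death. The R175H change disturbs the folding of the DNA-binding domain, so that the protein no longer binds its usual sites, yet it often accumulates in tumour cells and is studied for effects on other transcription programmes. Among the programmes described below, the hypoxia response is driven by HIF, whose alpha subunits are hydroxylated by EGLN enzymes and degraded when oxygen is present, and whose target genes carry glycolytic enzymes, collagen prolyl hydroxylase and mitophagy receptors. The NF-kB response is driven by dimers of the REL family that the inhibitor NFKBIA holds in the cytoplasm, and its target genes include interleukins, chemokines and the inhibitor itself.

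Sequences are shown for 3 host transcripts among the largest increases and for 4 genes of the hypoxia and NF-kB lists. MIR210HG, MEST and H19, 3 of the transcripts that were higher with shRNA 1, are known as hosts of microRNAs. The microRNAs themselves were not measured in these mRNA libraries, and the sequences show only what the host loci carry. They come from RefSeq (GRCh38.p14) and run 5′ to 3′, with the seed (bases 2 to 8) in capitals. miR-210-3p lies at chr11:568112-568133 on the minus strand, miR-335-5p at chr7:130496126-130496148 on the plus strand and miR-675-5p at chr11:1996800-1996822 on the minus strand.
hsa-miR-210-3p, hosted by MIR210HG: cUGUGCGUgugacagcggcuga
hsa-miR-335-5p, hosted by MEST: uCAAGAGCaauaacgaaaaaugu
hsa-miR-675-5p, hosted by H19: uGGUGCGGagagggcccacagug
The 3 seeds differ from one another.

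Promoter windows are shown for 3 hypoxia-inducible genes that were higher with shRNA 1 and for 1 NF-kB gene that was lower. Each window runs 250 bases before to 50 bases after the annotated start in RefSeq (GRCh38.p14), on the gene's own strand. The counts were made on hg19 and carry no coordinates, so these windows were joined by gene symbol alone. In the windows of P4HA1 (chr10:73096817-73097116, minus strand), BNIP3 (chr10:131981874-131982173, minus strand) and PGK1 (chrX:78103998-78104297, plus strand), capitals mark ACGTG or its reverse complement CACGT, the core of the hypoxia response element. In BNIP3 the 2 matches overlap in 1 palindrome. In the window of NFKBIA (chr14:35404700-35404999, minus strand), capitals mark a match to the kappaB consensus on either strand.
P4HA1: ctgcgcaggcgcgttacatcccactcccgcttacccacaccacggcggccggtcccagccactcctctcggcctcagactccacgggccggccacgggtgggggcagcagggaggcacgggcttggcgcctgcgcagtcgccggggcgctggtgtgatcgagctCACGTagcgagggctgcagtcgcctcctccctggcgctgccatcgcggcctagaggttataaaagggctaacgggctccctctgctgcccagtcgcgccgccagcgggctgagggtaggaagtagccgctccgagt
BNIP3: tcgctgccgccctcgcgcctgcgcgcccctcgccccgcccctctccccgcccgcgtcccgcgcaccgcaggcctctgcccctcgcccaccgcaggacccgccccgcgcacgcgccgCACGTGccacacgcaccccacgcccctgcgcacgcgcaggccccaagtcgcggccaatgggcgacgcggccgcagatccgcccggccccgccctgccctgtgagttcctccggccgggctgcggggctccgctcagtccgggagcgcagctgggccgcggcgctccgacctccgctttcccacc
PGK1: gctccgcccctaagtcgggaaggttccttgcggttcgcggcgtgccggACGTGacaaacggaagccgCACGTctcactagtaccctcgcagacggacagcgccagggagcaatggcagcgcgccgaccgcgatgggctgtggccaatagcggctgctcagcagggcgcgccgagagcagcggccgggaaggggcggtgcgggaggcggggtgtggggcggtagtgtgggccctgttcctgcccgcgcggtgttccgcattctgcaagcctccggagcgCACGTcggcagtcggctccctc
NFKBIA: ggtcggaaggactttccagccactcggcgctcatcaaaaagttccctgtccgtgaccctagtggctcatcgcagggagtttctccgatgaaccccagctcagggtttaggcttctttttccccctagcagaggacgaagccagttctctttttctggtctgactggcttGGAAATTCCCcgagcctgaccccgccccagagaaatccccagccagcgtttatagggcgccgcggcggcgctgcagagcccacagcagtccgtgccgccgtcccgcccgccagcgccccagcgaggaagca
The core motif was in 21.4% of the 35116 promoter windows of the table. Of the 9586 tested genes that a window could be matched to, 32.6% had it in at least 1 window. It was in 18 of the 29 hypoxia-inducible genes with a window (62.1%) and in 12 of the 18 glycolysis genes with one (66.7%). The kappaB consensus was in 17.3% of the 9586 genes and in 13 of the 20 NF-kB genes with a window (65%). These matches describe the letters in the windows, and whether a factor bound them was not measured.

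Counts were deposited for 25435 gene symbols. Library totals were 11500899 and 9738094 counts with shRNA 1, against 12971347 and 13873470 counts with scramble, and the 8 knockdown-arm libraries ran from 9738094 to 16823246. Levels are given as CPM, a gene's count over the library total on a common scale, after scaling by the trimmed mean of M values (TMM). The biological coefficient of variation over the 8 libraries was 3.08%, and replicate libraries were further apart than counting noise alone would put them in every group. The labelled tissue was checked against marker genes. Fibroblast markers were all present, with VIM at 14332 and 15116 CPM with shRNA 1 against 13276 and 12836 CPM with scramble and a summed level over the 13 markers of 34140 and 35970 CPM with shRNA 1 against 31790 and 30720 CPM with scramble. Of 11 epithelial markers, 7 averaged below 1 CPM, among them EPCAM, CDH1 and KRT19. KRT8 was at 196 and 197 CPM with shRNA 1 against 188 and 167 CPM with scramble. KRT18 was at 214 and 225 CPM with shRNA 1 against 198 and 187 CPM with scramble. All 7 gastric and all 8 intestinal lineage markers in the table averaged below 1 CPM, with TFF1, TFF2, GKN2, VIL1, LGALS4 and HNF4A at 0 in every one of the 8 libraries. All 8 endothelial and 6 of 8 leukocyte markers also averaged below 1 CPM. The exceptions among leukocyte markers were CSF1R and CD68, a lysosomal protein gene, which was at 364 and 364 CPM with shRNA 1 against 421 and 405 CPM with scramble. Of the 13 fibroblast markers, 3 were called higher and 3 lower with shRNA 1, near the shares over all genes, 16.2% and 16.9%. Of the 5 epithelial markers tested 3 were called higher, and with so few genes nothing is read from that count. KRT8, called higher, lost its call under some alternative settings. The part of this marker pattern in the results was not tested.

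Of 12980 genes tested, 4304 (33.2%) were called in shRNA 1 against scramble at an adjusted p below 0.05 (edgeR quasi-likelihood F test, two-sided, Benjamini-Hochberg). Of these, 2106 (16.2% of the genes tested) were higher and 2198 (16.9%) were lower with shRNA 1. DESeq2 called 2869 genes, and edgeR called 1258 when all 12 libraries entered the fit. Most calls were small. A fold change of at least 1.5 was reached by 517 called genes that were higher (3.98%) and 430 that were lower (3.31%), and at least 2-fold by 138 and 127. The median log2 fold change over all genes tested was 0.0068. In the same fit, 38.8% of genes were called in shRNA 1 against shRNA 2, 40.7% in shRNA 1 against vector and 42.1% in scramble against vector. More genes were thus called between the 2 controls than between shRNA 1 and scramble. For this reason shRNA 2 and vector values stand beside those of shRNA 1 and scramble for most genes given by library below. The comparisons against scramble, shRNA 2 and vector share the shRNA 1 libraries, so each is given with its own values. Against vector, 19% of genes were called higher and 21.7% lower with shRNA 1. The counts for each gene list below are to be read beside these shares and those against scramble.

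**Figure D1:**
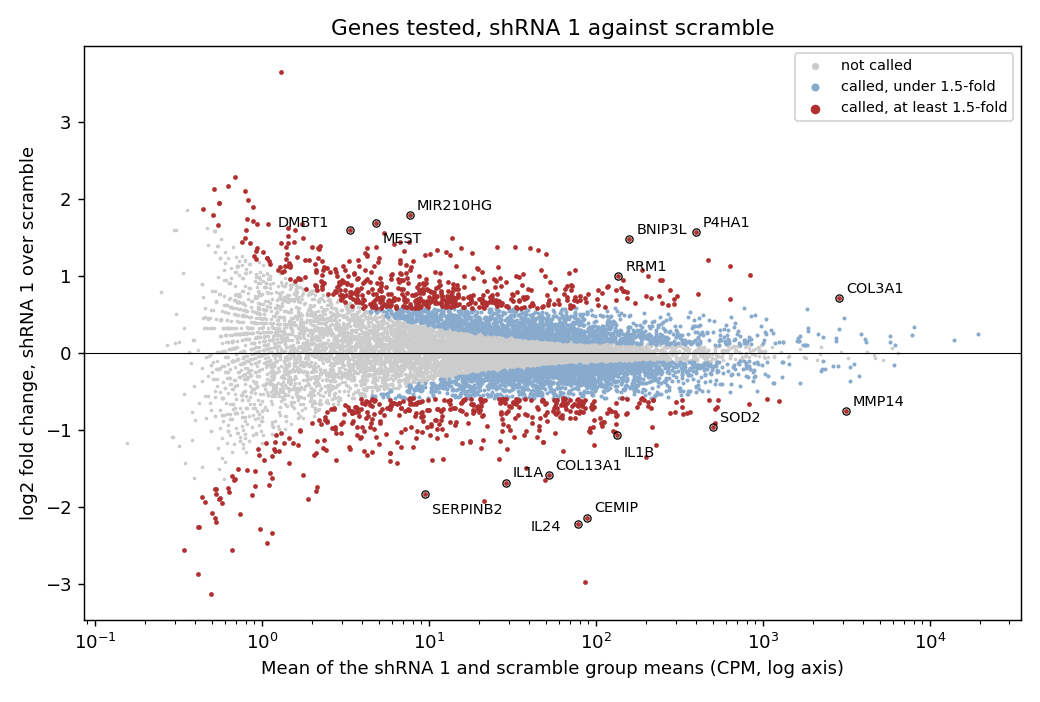
Each point is 1 of 12980 tested genes, with the mean of the shRNA 1 and scramble group means in CPM (log axis) against the log2 fold change of shRNA 1 over scramble. Red points were called and changed at least 1.5-fold, blue points were called with a smaller change, and named genes are circled, among them IL24 at -2.22 and P4HA1 at 1.57.

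IL24, CEMIP and MEST had been picked as marker genes of this comparison from earlier results of the same data. These are bulk libraries, in which fewer cells with a transcript and less transcript per cell cannot be told apart. The strand setting of the counting is unknown here, so reads of MEST, H19 and RTL1 cannot be told apart from those of their antisense partners. IL24, a cytokine of the interleukin-10 family, had 27.2 and 28.3 CPM with shRNA 1, against 135 and 123 CPM with scramble. It was 4.65-fold lower with shRNA 1 (log2 fold change -2.22, SE 0.07, edgeR adjusted p 2.7e-28). With shRNA 2 it had 79.5 and 72.8 CPM and with vector 22.6 and 21.3 CPM, so that shRNA 1 lay slightly above vector (0.34, edgeR adjusted p 0.0026) and scramble stood highest of the 4 groups. CEMIP, which encodes a protein that degrades hyaluronan, had 32.7 and 32.9 CPM with shRNA 1, against 145 and 144 CPM with scramble. It fell 4.40-fold (log2 fold change -2.14, SE 0.06, edgeR adjusted p 1.3e-29). CEMIP also had 98.4 and 94.2 CPM with shRNA 2 and 57.9 and 60.2 CPM with vector, so that both shRNA 1 libraries were the lowest of the 8, and it was lower than with vector too (-0.85, edgeR adjusted p 8.2e-14). MEST, a paternally expressed imprinted gene, had 8.51 and 6.10 CPM with shRNA 1, against 1.996 and 2.56 CPM with scramble. It rose 3.21-fold (log2 fold change 1.68, SE 0.23, edgeR adjusted p 7.4e-08). At 2.11 and 2.94 CPM with shRNA 2 and 4.76 and 5.08 CPM with vector, MEST was highest in the shRNA 1 libraries, and its difference from vector was 0.58 (edgeR adjusted p 0.013). Against vector, shRNA 1 was thus lower in CEMIP and higher in IL24 and MEST.

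The other large increases differed in where the vector libraries lay. In 1 kind the scramble libraries were the lowest of the 8 and vector was near or above shRNA 1. P4HA1, the catalytic subunit of collagen prolyl hydroxylase, had 613 and 572 CPM with shRNA 1, against 201 and 199 CPM with scramble. It also had 613 and 597 CPM with shRNA 2 and 747 and 754 CPM with vector, so the scramble libraries stood apart from the other 6. It rose 2.96-fold against scramble (log2 fold change 1.57, SE 0.04, edgeR adjusted p 1.5e-30) and was lower than with vector (-0.34, edgeR adjusted p 3.5e-09). MIR210HG, the host transcript of miR-210, had 11.9 and 11.9 CPM with shRNA 1, against 3.53 and 3.35 CPM with scramble, and 10.5 and 11.5 CPM with shRNA 2 and 18.8 and 17.3 CPM with vector. It showed the same order, with a log2 fold change of 1.79 against scramble and -0.60 against vector. BNIP3L, a mitophagy receptor, had 238 and 228 CPM with shRNA 1, against 79.8 and 87.8 CPM with scramble, and 241 and 244 CPM with shRNA 2 and 253 and 259 CPM with vector. H19, an imprinted non-coding RNA, had 21.4 and 19.005 CPM with shRNA 1, against 7.14 and 7.19 CPM with scramble, and 13.4 and 13.2 CPM with shRNA 2 and 22.1 and 18.01 CPM with vector. Its libraries overlapped those of vector, and its log2 fold change was 1.499 against scramble and 0.02 against vector (edgeR adjusted p 0.88). ICK, a ciliary kinase, rose by 1.37 against scramble and was at 0.11 against vector (edgeR adjusted p 0.29). PRKAG2, a regulatory subunit of AMP-activated kinase, rose by 1.37 against scramble and was at -0.08 against vector (edgeR adjusted p 0.59).

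In the other kind the shRNA 1 libraries were the highest of the 8, as in MEST. DMBT1, a mucosal scavenger glycoprotein, had 4.38 and 5.79 CPM with shRNA 1, against 1.69 and 1.64 CPM with scramble. Its level was 1.17 and 1.03 CPM with shRNA 2 and 0.577 and 0.768 CPM with vector, so that both shRNA 1 libraries were the highest of the 8. TNFSF10, which encodes the death ligand TRAIL, had 12.3 and 9.96 CPM with shRNA 1, against 4.38 and 3.85 CPM with scramble. With shRNA 2 it had 4.22 and 4.12 CPM, within the range of the scramble libraries, and with vector 1.59 and 1.59 CPM, the lowest. Its log2 fold change was 1.45 against scramble, 1.42 against shRNA 2 and 2.81 against vector, all called (edgeR adjusted p 6.2e-09, 6.5e-09 and 2.4e-15). RTL1, an imprinted gene derived from a retrotransposon, rose by 1.28 against scramble, 1.31 against shRNA 2 and 2.57 against vector, also all called. KDM1B, a histone demethylase, had 46.7 and 47.9 CPM with shRNA 1, against 17.7 and 18.5 CPM with scramble, and 33.5 and 35.3 CPM with shRNA 2 and 31.6 and 32.2 CPM with vector. It rose by 1.38 against scramble and by 0.57 against vector. KCNS1, a modulatory potassium channel subunit, was of neither kind and rose by 1.44 against scramble and by 1.45 against shRNA 2 but was lower than with vector (-0.69). LRRC20 (1.55), KIAA1671 (1.37) and TLCD2 (1.36) complete the 14 largest increases.

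Among the largest decreases, several were nearer to vector than to scramble with shRNA 1. SERPINB2, the plasminogen activator inhibitor PAI-2, had 4.12 and 4.17 CPM with shRNA 1, against 13.7 and 15.8 CPM with scramble. It had 26.8 and 28.7 CPM with shRNA 2, the highest level, and 2.59 and 3.84 CPM with vector. It fell 3.57-fold against scramble (log2 fold change -1.83, SE 0.17, edgeR adjusted p 1.5e-12), with no call against vector (0.34, edgeR adjusted p 0.23). FAIM3, an Fc receptor for immunoglobulin M, had 10.2 and 7.52 CPM with shRNA 1, against 33.5 and 34.3 CPM with scramble, and 19.8 and 23.2 CPM with shRNA 2 and 10.5 and 8.56 CPM with vector. Its shRNA 1 and vector libraries overlapped, and it fell by 1.92 on the log2 scale against scramble. HSD11B1, the enzyme that regenerates cortisol from cortisone, had 23.1 and 25.4 CPM with shRNA 1, against 74.5 and 76.6 CPM with scramble, and 57.7 and 57.1 CPM with shRNA 2 and 18.8 and 18.8 CPM with vector. It fell by 1.64 on the log2 scale against scramble and was 0.36 above vector (edgeR adjusted p 0.0017). CLDN1, a tight junction protein, and IL4I1, an amino acid oxidase, fell by 1.42 and 1.40 on the log2 scale against scramble and were at 0.02 and -0.02 against vector, with no call (edgeR adjusted p 0.95 and 0.97).

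Other decreases set shRNA 1 below all the other groups. COL13A1, a transmembrane collagen, had 25.5 and 26.6 CPM with shRNA 1, against 78.0 and 78.1 CPM with scramble. It had 73.9 and 74.8 CPM with shRNA 2 and 49.9 and 51.5 CPM with vector, and both shRNA 1 libraries were the lowest of the 8. Its log2 fold change was -1.58 against scramble and -0.96 against vector (edgeR adjusted p 2.3e-22 and 1.8e-14). ARPC1A, a subunit of the ARP2/3 actin nucleator, had 20.3 and 19.6 CPM with shRNA 1, against 56.0 and 55.8 CPM with scramble. In the other groups it was at 47.0 and 50.3 CPM with shRNA 2 and 45.3 and 48.8 CPM with vector, so that scramble, shRNA 2 and vector lay close together and shRNA 1 alone was low (log2 fold change -1.48 against scramble, -1.29 against shRNA 2 and -1.24 against vector). PET100, a cytochrome c oxidase assembly factor, had 7.39 and 3.96 CPM with shRNA 1, against 15.0 and 15.3 CPM with scramble, and 13.7 and 16.1 CPM with shRNA 2 and 13.8 and 11.2 CPM with vector. The 2 shRNA 1 libraries of PET100 lay far apart but both below the other 6, and it fell by 1.39 against scramble and by 1.10 against vector on the log2 scale. CD83, a surface protein of activated dendritic cells, fell by 1.38 against scramble and by 0.60 against vector. SBSN, suprabasin, fell by 1.37 against scramble and by 0.78 against vector.

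**Figure D2:**
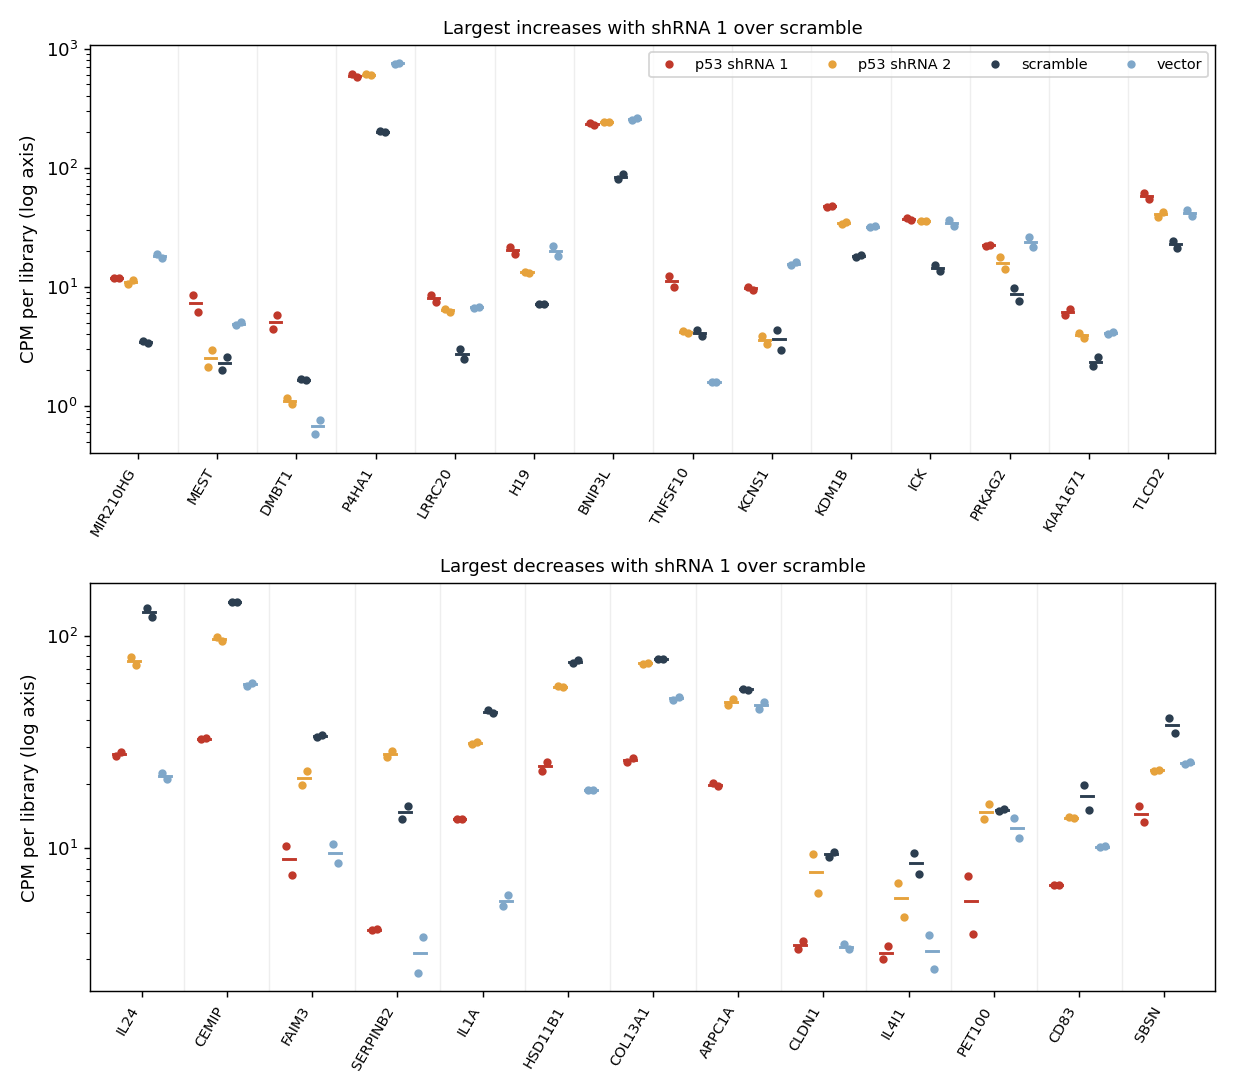
CPM per library (log axis) of the 14 largest increases (above) and of the reported genes among the 14 largest decreases (below), with shRNA 1, shRNA 2, scramble and vector from left to right; points are libraries and bars are means of 2. For P4HA1 the scramble libraries are the only low ones, while for ARPC1A the shRNA 1 libraries, at 20.3 and 19.6 CPM, are.

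Textbook target genes of p53 were called in both directions. CDKN1A, the p21 gene, whose product stops the cell cycle, had 80.3 and 85.6 CPM with shRNA 1, against 109.9 and 113 CPM with scramble. It had 184 and 198 CPM with shRNA 2 and 66.9 and 65.3 CPM with vector, so that shRNA 1 lay between the 2 controls. It fell by 0.43 on the log2 scale against scramble (SE 0.06, edgeR adjusted p 6.5e-08) and was 0.33 above vector. MDM2, the ubiquitin ligase of p53, had 38.3 and 37.8 CPM with shRNA 1, against 40.6 and 39.4 CPM with scramble, and was not called (log2 fold change -0.07, SE 0.08, edgeR adjusted p 0.53). Of 32 tested p53 targets, 8 were called higher and 4 lower against scramble, and 10 higher and 7 lower against vector. The shares over all genes were 16.2% higher and 16.9% lower against scramble and 19% higher and 21.7% lower against vector. Higher calls were thus more frequent in this list than over all genes, and lower calls were not clearly so. The difference was not tested, and the list's median against scramble was -0.02. GDF15, a stress cytokine, had 15.6 and 14.7 CPM with shRNA 1, against 30.9 and 27.6 CPM with scramble, and 44.3 and 42.1 CPM with shRNA 2 and 8.79 and 9.21 CPM with vector. SESN2, a stress-induced regulator of mTORC1, rose by 0.70 and PHLDA3, an inhibitor of AKT, by 0.48 against scramble. PLK3, a stress kinase, fell by 0.60, and CCNG1, a cyclin that p53 is known to induce, rose by 0.37 against scramble and by 0.32 against vector.

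Hypoxia-inducible genes were mostly higher with shRNA 1 than with scramble and mostly lower than with vector. Of 34 tested, 22 were called higher and 2 lower against scramble, with a median log2 fold change of 0.37. Against vector 1 was called higher and 25 lower, with a median of -0.35. The shares over all genes were 16.2% and 16.9% against scramble and 19% and 21.7% against vector. Besides P4HA1 and BNIP3L, AK4, a mitochondrial adenylate kinase, had 65.6 and 62.9 CPM with shRNA 1, against 24.9 and 25.7 CPM with scramble, and 71.0 and 67.5 CPM with shRNA 2 and 60.5 and 66.4 CPM with vector. BNIP3, the paralogous mitophagy receptor, had 188 and 183 CPM with shRNA 1, against 111 and 102 CPM with scramble. It had 205 and 211 CPM with shRNA 2, its level with vector, 309 and 303 CPM, was the highest, and the log2 fold change was 0.80 against scramble and -0.72 against vector. NDRG1, a stress-responsive gene, had 1197 and 1200.3 CPM with shRNA 1, against 882 and 885 CPM with scramble, and 1487 and 1540.3 CPM with shRNA 2 and 2518 and 2498 CPM with vector. It rose by 0.44 against scramble and fell by 1.07 against vector. STC2, a secreted glycoprotein, went the other way, with 164 and 158 CPM with shRNA 1, against 257 and 245 CPM with scramble, and 143 and 149 CPM with shRNA 2 and 362 and 359.5 CPM with vector. Both hairpins were below both controls in STC2, and it fell by 0.64 against scramble and by 1.16 against vector.

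Most glycolysis genes showed the same order of the 3 groups. Of 19 tested, 13 were called higher and 2 lower against scramble (median 0.32), and 1 higher and 14 lower against vector (median -0.35). Beside these stand 16.2% and 16.9% of all genes against scramble and 19% and 21.7% against vector. PGK1, phosphoglycerate kinase, had 365 and 362 CPM with shRNA 1, against 230.1 and 216 CPM with scramble, and 378 and 383 CPM with shRNA 2 and 576 and 569 CPM with vector. LDHA, which makes lactate, had 1067 and 1026 CPM with shRNA 1, against 743 and 738 CPM with scramble, and 1041 and 1059 CPM with shRNA 2 and 1464 and 1455 CPM with vector. In each of these the shRNA 1 libraries lay between the 2 controls. The enolase genes ENO1 (0.46 against scramble, -0.68 against vector) and ENO2 (0.47 and -0.80) and GPI (0.43 and -0.28), the isomerase of the second step, did likewise. ENO2 separated the hairpins, with 285 and 279 CPM with shRNA 1 and 503 and 520.2 CPM with shRNA 2. The regulators of HIF were mixed. Of 11 tested, 2 were called higher and 5 lower against scramble, beside 16.2% and 16.9% of all genes tested. ARNT2, a partner of the HIF alpha subunits, had 12.3 and 12.2 CPM with shRNA 1, against 29.0 and 28.4 CPM with scramble, and 16.2 and 18.5 CPM with shRNA 2 and 9.59 and 11.8 CPM with vector. The general partner ARNT fell by 0.39 against scramble and by 0.40 against vector, and CITED2, which competes with HIF for a coactivator, fell by 0.31 and 0.92. EGLN3, an oxygen-sensing hydroxylase that HIF itself induces, had 4.21 and 5.69 CPM with shRNA 1, against 2.69 and 2.35 CPM with scramble, and rose by 0.96. Without shRNA 1 replicate 2 that change was 0.74 and not called (edgeR adjusted p 0.055).

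**Figure D3:**
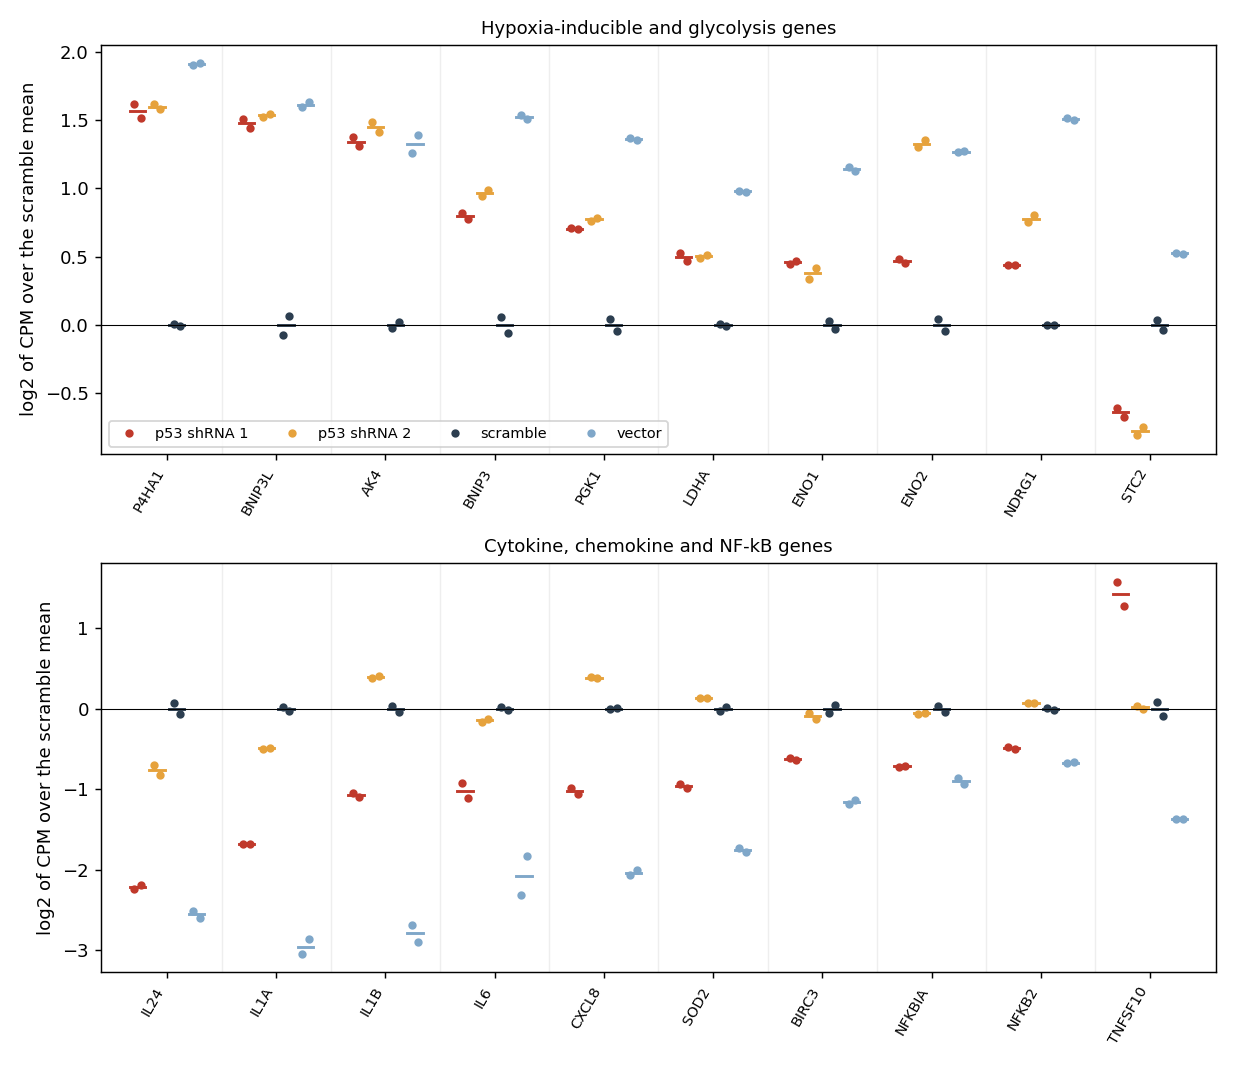
Log2 of CPM over the scramble mean in each library for hypoxia-inducible and glycolysis genes (above) and for cytokine, chemokine and NF-kB genes (below), with shRNA 1, shRNA 2, scramble and vector from left to right; points are libraries and bars are means of 2. Vector lies above shRNA 1 in PGK1, LDHA and NDRG1 and below it in IL1A, IL1B and SOD2.

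Most NF-kB genes were lower with shRNA 1 than with scramble, and some were higher than with vector. Of 24 tested NF-kB targets and regulators, 1 was called higher and 18 lower against scramble, with a median log2 fold change of -0.43. Against vector 12 were called higher, with a median of 0.17. Over all genes, 16.2% were called higher and 16.9% lower against scramble, and 19% higher against vector. SOD2, the mitochondrial superoxide dismutase, had 345 and 335 CPM with shRNA 1, against 651 and 672 CPM with scramble. It had 728 and 726 CPM with shRNA 2 and 199 and 193 CPM with vector, so that shRNA 2 was highest and shRNA 1 lay between scramble and vector. NFKBIA, the inhibitor of NF-kB, had 160.3 and 162 CPM with shRNA 1, against 272 and 258 CPM with scramble, and 254 and 255 CPM with shRNA 2 and 146 and 139 CPM with vector. It fell by 0.72 against scramble (SE 0.05, edgeR adjusted p 9.9e-17) and was 0.18 above vector. BIRC3, a ubiquitin ligase that restrains cell death, fell by 0.63, CYLD, a deubiquitinase that damps the pathway, by 0.66, and NFKB2, the p100 precursor, by 0.49 against scramble.

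Most cytokine genes were lower as well. Of 17 interleukins and related cytokines tested, 12 were called lower against scramble (median -0.57), and 8 higher and 2 lower against vector (median 0.34). IL1A, interleukin 1 alpha, had 13.7 and 13.7 CPM with shRNA 1, against 44.6 and 43.2 CPM with scramble. It had 31.0 and 31.5 CPM with shRNA 2 and 5.33 and 6.02 CPM with vector, and fell 3.21-fold against scramble (log2 fold change -1.68, SE 0.10, edgeR adjusted p 5.9e-19) while being 1.26 above vector. IL1B, interleukin 1 beta, had 87.6 and 84.3 CPM with shRNA 1, against 185 and 175 CPM with scramble, and 236 and 239 CPM with shRNA 2 and 28.0 and 24.3 CPM with vector. The hairpins lay on opposite sides of scramble in IL1B. IL1RN, the antagonist of the interleukin 1 receptor, fell by 1.13 against scramble, IL6 by 1.01 and LIF, a cytokine that signals through IL6ST, by 0.57. Against vector IL1RN was at 0.81, IL6 at 1.02 and LIF at -0.12 (edgeR adjusted p 0.21 for LIF). Of 7 chemokines tested, 4 were called lower against scramble (median -0.34), and 6 higher against vector (median 0.98). For both lists the shares over all genes were 16.9% lower against scramble, and 19% higher and 21.7% lower against vector. CXCL8, a neutrophil attractant, had 87.6 and 83.4 CPM with shRNA 1, against 173 and 175 CPM with scramble, and 228 and 227 CPM with shRNA 2 and 41.4 and 43.5 CPM with vector. CXCL5 fell by 0.34 against scramble and was 1.16 above vector.

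Cytokine receptors were divided, with 9 of 22 called higher and 7 lower against scramble, beside 16.2% and 16.9% of all genes tested. Their log2 fold changes ran from -0.77 to 1.29, and the members named here are among the higher ones. IL1RAP, the coreceptor that interleukin 1 signalling needs, had 73.8 and 68.7 CPM with shRNA 1, against 27.9 and 30.5 CPM with scramble. It had 34.6 and 34.8 CPM with shRNA 2 and 47.9 and 46.2 CPM with vector, so that the shRNA 1 libraries were the highest of the 8, and it rose by 1.29 against scramble and by 0.60 against vector. The ligands IL1A and IL1B were thus lower and their coreceptor higher with shRNA 1 than with scramble. IL6ST, the shared receptor chain gp130, had 187 and 190.4 CPM with shRNA 1, against 100.3 and 116 CPM with scramble, and 141 and 133 CPM with shRNA 2 and 154 and 157 CPM with vector. OSMR and LIFR, which pair with it, rose by 0.46 and 0.49 against scramble, and the difference from vector was 0.33 for OSMR and 0.08 for LIFR (edgeR adjusted p 0.29 for LIFR). CSF2RB, the shared beta chain of the interleukin 3 family, rose by 1.01 against scramble and by 0.81 against vector.

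Antigen presentation genes were mostly lower. Of 18 tested, 13 were called lower against scramble (median -0.21), and 3 were lower and 7 higher against vector. Over all genes, 16.9% were called lower against scramble, and 21.7% lower and 19% higher against vector. ERAP2, an aminopeptidase that trims peptides, had 76.6 and 73.3 CPM with shRNA 1, against 139.9 and 140.2 CPM with scramble, and 123 and 124 CPM with shRNA 2 and 118 and 119.7 CPM with vector. It was lowest with shRNA 1, and fell by 0.90 against scramble and by 0.66 against vector. TAP1, a subunit of the peptide transporter, fell by 0.39 against scramble and was at -0.08 against vector (edgeR adjusted p 0.2). CD274, the checkpoint ligand PD-L1, had 4.47 and 4.47 CPM with shRNA 1, against 8.67 and 9.55 CPM with scramble, and 5.08 and 4.78 CPM with shRNA 2 and 4.90 and 4.07 CPM with vector. Of 31 interferon-stimulated genes, 5 were called higher and 12 lower against scramble (median -0.18). The higher calls were near the share of all genes (16.2%), and the lower calls were above it (16.9%). GBP2, a guanylate-binding protein, fell by 0.48 against scramble and was 0.48 above vector. ISG15, a ubiquitin-like protein, fell by 0.69 against scramble and by 0.37 against vector.

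Genes of DNA replication and nucleotide supply were more often called higher than lower with shRNA 1 against scramble. Against vector they were more often called lower than higher. Of 29 G1/S and replication genes, 15 were called higher and 1 lower (median 0.37), while against vector 4 were higher and 10 lower (median -0.21). Shares over all genes, for this list and those that follow, were 16.2% and 16.9% against scramble and 19% and 21.7% against vector. MCM3, a subunit of the replicative helicase, had 34.4 and 30.7 CPM with shRNA 1, against 22.3 and 20.1 CPM with scramble, and 21.4 and 21.2 CPM with shRNA 2 and 27.9 and 28.4 CPM with vector. CLSPN, a checkpoint mediator at replication forks, rose by 0.86 against scramble and was at 0.24 against vector (edgeR adjusted p 0.19). The 1 member that fell was CCND1, cyclin D1, with 259 and 261 CPM with shRNA 1, against 442 and 452 CPM with scramble, and 355 and 347 CPM with shRNA 2 and 236 and 239 CPM with vector. Of 22 nucleotide synthesis genes, 12 were called higher and 1 lower against scramble (median 0.21), and 2 higher and 6 lower against vector (median -0.03). Those 6 lower calls were near the share over all genes, and nothing is read from them. RRM1, the large subunit of ribonucleotide reductase, had 182 and 181 CPM with shRNA 1, against 87.2 and 94.2 CPM with scramble. It had 161 and 156 CPM with shRNA 2 and 212 and 213 CPM with vector, so that scramble stood apart below the other 6 libraries. PAICS, an enzyme of purine synthesis, rose by 0.51 against scramble and was at -0.07 against vector (edgeR adjusted p 0.31). In the DNA repair list 11 of 32 genes were called higher and 1 lower against scramble (median 0.22), beside 16.2% and 16.9% of all genes. Against vector 3 of them were called higher and 10 lower (median -0.12). LIG1, the replicative DNA ligase, rose by 0.74 against scramble. Mitotic genes are given against each control. Against scramble 6 of 28 were called higher and 4 lower, near the shares of all genes, whereas against vector all 28 were called lower, with a median of -0.67. AURKA, a mitotic kinase, had 26.3 and 25.3 CPM with shRNA 1, against 32.3 and 35.4 CPM with scramble, and 30.8 and 26.5 CPM with shRNA 2 and 55.4 and 59.3 CPM with vector.

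Genes of the ATF4 response are switched on when amino acids are short or the endoplasmic reticulum is stressed. They were mostly called higher against scramble and mostly lower against vector. Of 27 tested, 16 were called higher and 6 lower against scramble (median 0.16), and 3 higher and 19 lower against vector (median -0.36). All genes tested had 16.2% higher and 16.9% lower against scramble, and 19% and 21.7% against vector. Calls of at least 1.5-fold against scramble were 6 higher and 4 lower, and the log2 fold changes ran from -0.98 to 1.2. The members named here are among the higher ones. PSAT1, an enzyme of serine synthesis, had 30.5 and 25.7 CPM with shRNA 1, against 13.5 and 13.8 CPM with scramble. It had 6.80 and 8.09 CPM with shRNA 2 and 24.8 and 27.6 CPM with vector, so that the shRNA 1 and vector libraries overlapped and shRNA 2 was the lowest. TRIB3, a pseudokinase, rose by 0.76 against scramble and was 0.62 lower than with vector, and CEBPG, a dimer partner of ATF4, rose by 0.70 against scramble and by 0.15 against vector. Of 22 chaperone and folding genes of the endoplasmic reticulum tested, 15 were called lower and 1 higher against scramble (median -0.30). HSPA5, the chaperone BiP, had 767 and 769 CPM with shRNA 1, against 1092 and 1078 CPM with scramble, and 872 and 887 CPM with shRNA 2 and 954 and 941 CPM with vector. The shRNA 1 libraries were the lowest, and HSPA5 fell by 0.50 against scramble and by 0.30 against vector. HSP90B1, the chaperone GRP94, fell by 0.39 and 0.36, and EDEM1, which directs misfolded glycoproteins to degradation, by 0.70 and 0.38.

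Matrix genes were called in both directions. Of 19 collagen genes, 5 were called higher and 8 lower against scramble, beside 16.2% and 16.9% of all genes tested. COL3A1, a fibrillar collagen, had 3506 and 3629 CPM with shRNA 1, against 2182 and 2168 CPM with scramble. It had 2249.8 and 2230.4 CPM with shRNA 2 and 1451 and 1478 CPM with vector, so that the shRNA 1 libraries were the highest of the 8. It rose by 0.71 against scramble and by 1.28 against vector (edgeR adjusted p 7.7e-21 and 1.5e-30). COL4A1, a basement membrane collagen, had 29.1 and 27.8 CPM with shRNA 1, against 62.1 and 59.0 CPM with scramble, and 39.5 and 41.3 CPM with shRNA 2 and 32.9 and 36.0 CPM with vector. MMP14, a membrane-bound collagenase, had 2298 and 2367 CPM with shRNA 1, against 4023 and 3827 CPM with scramble. It had 5612 and 5842 CPM with shRNA 2 and 2171 and 2108 CPM with vector, so that the hairpins lay on opposite sides of scramble. MMP2, which MMP14 activates, fell by 0.30 against scramble and was 0.54 above vector. FBN1, a microfibril protein, had 372 and 395 CPM with shRNA 1, against 224 and 234 CPM with scramble, and 444 and 429 CPM with shRNA 2 and 412 and 410.2 CPM with vector. ADAM12, a metalloprotease, had 141 and 135 CPM with shRNA 1, against 79.8 and 80.8 CPM with scramble. With 53.1 and 51.7 CPM with shRNA 2 and 72.9 and 73.5 CPM with vector, ADAM12 was highest in the shRNA 1 libraries, and it rose by 0.78 against scramble and by 0.91 against vector.

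Besides CEMIP and SERPINB2, other genes of hyaluronan and of plasminogen activation were called in both directions. TMEM2, a cell-surface hyaluronidase, fell by 0.65 against scramble and by 0.26 against vector, and HAS3, a hyaluronan synthase, rose by 0.65 and 0.49. In all 2 of 11 hyaluronan genes were called higher and 3 lower, CEMIP among the latter. These counts are near the shares over all genes, 16.2% and 16.9%, and nothing is read from them. Of 8 plasminogen activation genes, 2 were called higher and 4 lower against scramble, and 2 higher and 5 lower against vector. ANXA2, a plasminogen receptor on the cell surface, had 1139 and 1086 CPM with shRNA 1, against 556 and 549 CPM with scramble, and 950.2 and 975 CPM with shRNA 2 and 1506 and 1482 CPM with vector. Scramble was again the lowest, and its partner S100A10 rose by 0.55 against scramble and was 0.51 lower than with vector. PLAUR, the urokinase receptor, fell by 0.65 against scramble and was 0.21 above vector.

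Among signalling genes, those of the ERK feedback loop were more often called lower than higher against scramble, with 8 of 18 lower and 2 higher (median -0.23). Against vector the order turned over, with 7 called higher and 2 lower (median 0.25). All genes tested had 16.2% higher and 16.9% lower against scramble, and 19% and 21.7% against vector. Scramble itself had 10 called higher and 1 lower against vector. SPRY4, an inhibitor of receptor signalling, had 7.56 and 8.33 CPM with shRNA 1, against 15.0 and 15.1 CPM with scramble, and 18.1 and 19.9 CPM with shRNA 2 and 7.35 and 7.20 CPM with vector. DUSP5, a phosphatase of ERK, fell by 0.81 against scramble. Of 22 AP-1 and immediate early genes, 5 were called higher and 9 lower against scramble, beside 16.2% and 16.9% of all genes tested. EGR1, an immediate early transcription factor, had 61.5 and 58.1 CPM with shRNA 1, against 124 and 119 CPM with scramble, and 155 and 156 CPM with shRNA 2 and 63.0 and 62.5 CPM with vector. It was close to vector with shRNA 1 and highest with shRNA 2. TGFBR2, the ligand-binding receptor of TGF-beta, had 295 and 304 CPM with shRNA 1, against 175 and 184 CPM with scramble, and 261 and 255 CPM with shRNA 2 and 162 and 149.5 CPM with vector. INHBA, a ligand of that family, had 229.5 and 214 CPM with shRNA 1, against 370.1 and 385 CPM with scramble, and 369.8 and 374 CPM with shRNA 2 and 180.0 and 186 CPM with vector. The receptor rose by 0.74 and the ligand fell by 0.77 against scramble. In the TGF-beta list 7 of 27 genes were called higher and 7 lower, beside 16.2% and 16.9% of all genes tested. CYR61, a secreted target of YAP, fell by 0.65 against scramble and by 1.22 against vector, and NT5E, a nucleotidase that makes adenosine, rose by 1.002 and 0.58.

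ACSL4, which activates polyunsaturated fatty acids, had 82.1 and 87.0 CPM with shRNA 1, against 163 and 178 CPM with scramble, and 165 and 160.03 CPM with shRNA 2 and 132 and 135 CPM with vector. It was lowest with shRNA 1, and fell by 1.02 against scramble and by 0.66 against vector, as did the related ACSL3 (-0.84 and -0.73). SQLE, an enzyme of cholesterol synthesis, fell by 0.58 against scramble. These are falling members of lists that were called in both directions. Of 21 fatty acid synthesis and elongation genes, 6 were called higher and 7 lower against scramble (median 0.06). Among 23 cholesterol synthesis and uptake genes, 3 were called higher and 5 lower, beside 16.2% and 16.9% of all genes tested. SDHA, a subunit of respiratory complex II, had 85.2 and 86.2 CPM with shRNA 1, against 147 and 147 CPM with scramble, and 129 and 132 CPM with shRNA 2 and 133 and 133 CPM with vector. It was lowest with shRNA 1, whereas its list of nuclear oxidative phosphorylation genes had 3 of 36 called higher and 5 lower. Both are smaller shares than the 16.2% and 16.9% of all genes tested. Among cytosolic ribosomal protein genes the calls were small and, but for 1, upward. Of 72 tested, 33 were called higher and 1 lower against scramble (median 0.10), and 65 higher against vector (median 0.34). Over all genes, 16.2% were called higher and 16.9% lower against scramble, and 19% higher against vector. RPL4 had 2036 and 2045 CPM with shRNA 1, against 1694 and 1658 CPM with scramble, and 1759 and 1763 CPM with shRNA 2 and 1477 and 1449.9 CPM with vector. Ribosomal protein genes have many processed pseudogenes, so reads may be split among near-identical copies. Of 11 imprinted genes, 5 were called higher and 1 lower against scramble, beside 16.2% and 16.9% of all genes tested. Besides MEST and H19, PEG10, derived from a retrotransposon, had 254 and 257 CPM with shRNA 1, against 115 and 127 CPM with scramble. It had 108 and 102 CPM with shRNA 2 and 185 and 196 CPM with vector, and was highest with shRNA 1. IGF2R, a decoy receptor for IGF2, rose by 0.62 against scramble and by 0.36 against vector, and PHLDA2, a placental growth regulator, fell by 0.85 against scramble and was at -0.18 against vector (edgeR adjusted p 0.072). Genes of the RNA interference machinery, which any hairpin uses, included AGO2, the slicing Argonaute, with 67.9 and 68.1 CPM with shRNA 1, against 41.8 and 45.9 CPM with scramble, and 81.1 and 73.8 CPM with shRNA 2 and 59.0 and 61.6 CPM with vector. Of 15 such genes, 5 were called higher and 1 lower, beside 16.2% and 16.9% of all genes tested, and with so few genes nothing is read from that count.

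**Figure D4:**
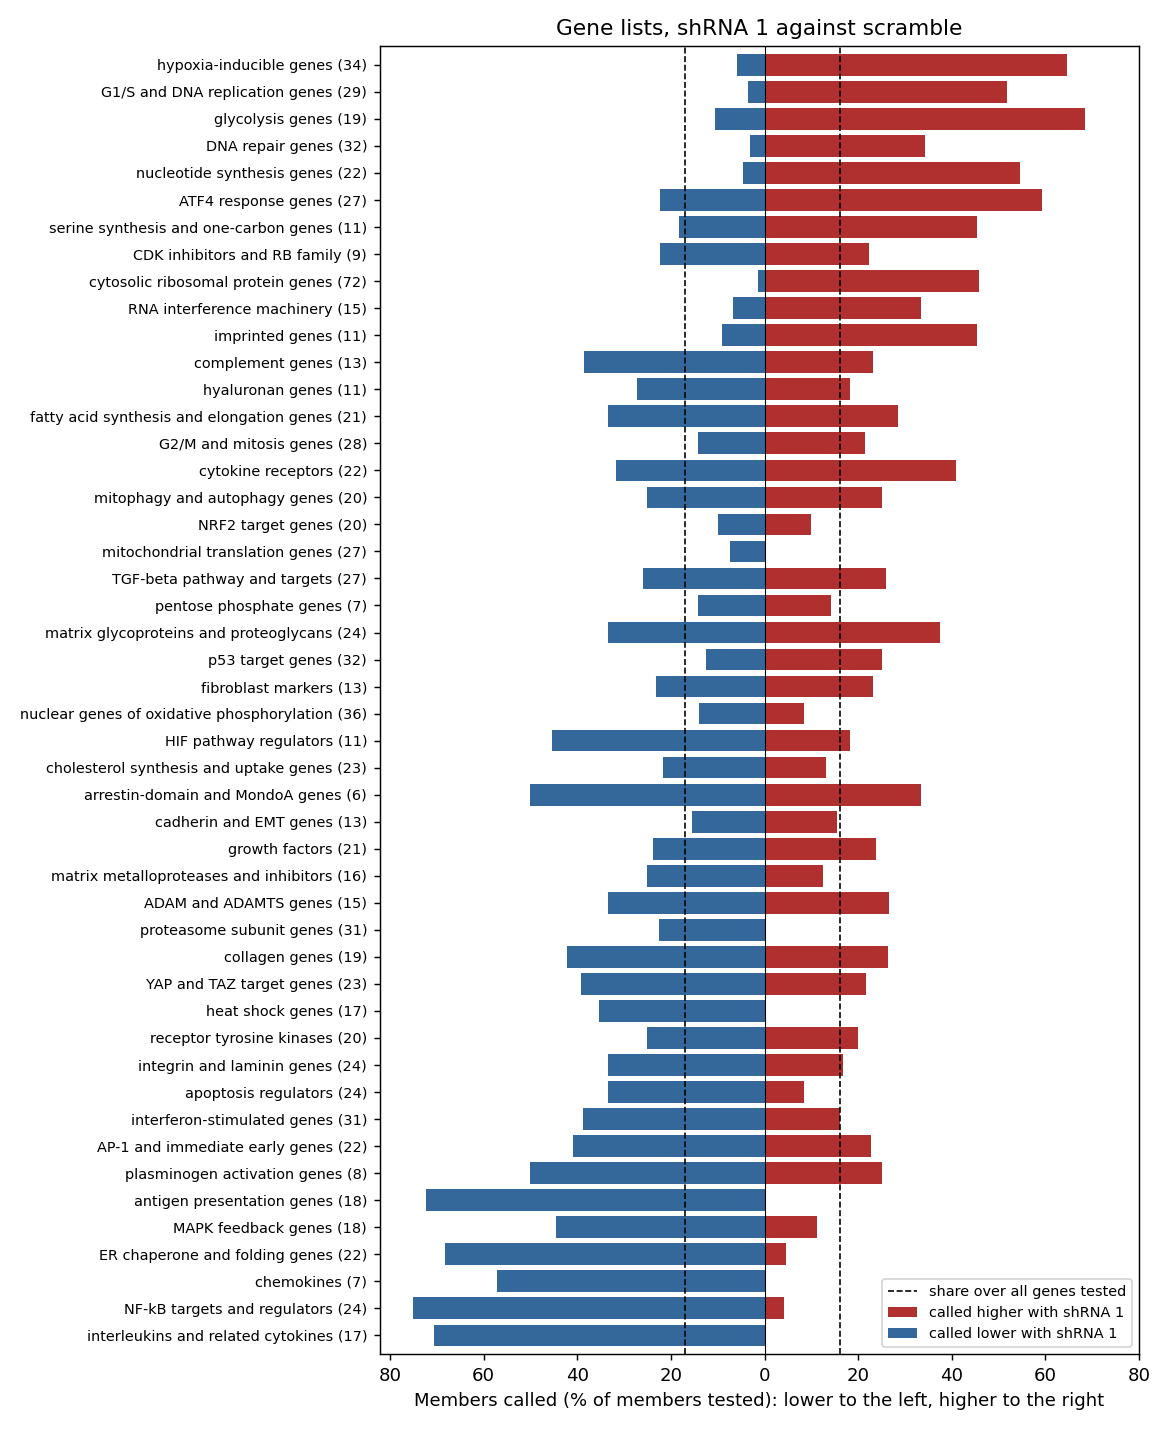
Share of each gene list's tested members called higher (red, to the right) or lower (blue, to the left) with shRNA 1 against scramble, in percent, with the number tested in brackets and lists ordered by their median log2 fold change. Dashed lines mark the shares over all genes tested, 16.2% higher and 16.9% lower; hypoxia-inducible genes stand at the top and interleukins at the bottom.

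The places of scramble and shRNA 1 among the 8 libraries are given here. Of the 517 genes that were at least 1.5-fold higher with shRNA 1 (3.98% of those tested), both shRNA 1 libraries were the highest of the 8 in 283 (54.7%) and both scramble libraries were the lowest in 263 (50.9%). Of the 430 that were at least 1.5-fold lower (3.31%), both shRNA 1 libraries were the lowest in 240 (55.8%) and both scramble libraries were the highest in 185 (43%). A gene could be counted on both sides. The genes were picked for a gap between shRNA 1 and scramble, which by itself places these 2 groups toward the ends. The counts therefore do not show which group stood apart, and they were not tested. Scramble lay at one end, and shRNA 1 did not, in P4HA1, BNIP3L, BNIP3, NDRG1, PGK1, LDHA, RRM1 and ANXA2 among the higher genes and in IL24, IL1A, IL1RN, IL6, NFKBIA and CCND1 among the lower ones. CEMIP, COL13A1, ARPC1A, ERAP2, ACSL4 and SDHA on the low side, and DMBT1, TNFSF10, RTL1, ADAM12, IL1RAP, COL3A1 and PEG10 on the high side, had shRNA 1 at one end. In some genes, such as CEMIP and IL1RAP, shRNA 1 lay at one end and scramble at the other.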

How the data were processed

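RNA-seq was made from LMSU cells with the RNeasy kit and the Kapa mRNA Hyper kit, per the labels' protocols. Reads were aligned with STAR 2.5 to hg19, per the submitters' processing notes; for the counting tool, the strand setting and the annotation: not given in the sources used here. The authors deposited whole-number counts per gene symbol for all 12 libraries, and the units were checked against the values. From these counts, genes were kept by edgeR's filterByExpr (minimum count 10; 12980 of 25435 genes), scaled by TMM and tested with edgeR 4.0.16 (R 4.3.3) by the quasi-likelihood F test on the 8 knockdown-arm libraries, with 1 coefficient per group, 4 residual degrees of freedom and Benjamini-Hochberg adjustment over all genes tested. A gene is called at an adjusted p below 0.05. Levels are CPM, and log2 fold changes carry the fit's small prior count. The steps were tested on simulated data. The precision is set by library totals of 9738094 to 16823246 counts and by 2 libraries per group. Alternatives used limma 3.58.1 and DESeq2 1.42.0; their effect is given in the closing section.

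The members and the gene lists were chosen with earlier results of these data known. The genes named were IL24, CEMIP, MEST, CDKN1A and MDM2; the 14 called genes with the largest increase and the 14 with the largest decrease whose libraries did not overlap and whose higher group averaged at least 5 CPM, without clone, antisense, pseudogene, LOC, LINC or small RNA names; up to 6 members with the smallest p of each list; and the 5 in each direction also called the same way against shRNA 2, under the same filters and ranked by the smaller of the 2 changes. Results for some genes under this rule are not reported here. TFF1, TFF2, GKN2, VIL1, LGALS4, HNF4A, EPCAM, CDH1, KRT18, KRT19 and CSF1R were named as markers after their values were seen. KRT18 is left out of the searches and counts of named genes below. Same-numbered libraries of shRNA 1 and scramble did not deviate together, and nothing in the labels pairs them. Figures were drawn with matplotlib 3.10.9. Sequences came from RefSeq tables on GRCh38.p14 and were joined by symbol, of which 9586 of the tested genes had a promoter window.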

Additional observations from a re-analysis of the deposited data

Results flagged for a closer look

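Only genes named in this report were searched here, and opposite calls were not counted over all 12980 genes tested. Over all of these, 5038 were called in shRNA 1 against shRNA 2. The following named genes were called in opposite directions with shRNA 1 and shRNA 2, each against scramble. A call in the direct test of shRNA 1 against shRNA 2 was also required (edgeR quasi-likelihood F test with Benjamini-Hochberg adjustment). Opposite calls against scramble nearly ensure that call, so it adds no separate support. Both changes use the same scramble libraries. The log2 difference of shRNA 1 minus shRNA 2 was -1.21 for CDKN1A, which changed by -0.43 with shRNA 1 and by 0.78 with shRNA 2 (edgeR adjusted p 1.2e-22). It was -2.74 for SERPINB2 (-1.83 with shRNA 1 and 0.91 with shRNA 2), -1.51 for GDF15, and -1.10 for SOD2. Among cytokines it was -1.47 for IL1B and -1.41 for CXCL8. For the signalling genes EGR1 and SPRY4 it was -1.37 and -1.26. For the matrix genes MMP14, ADAM12 and TMEM2 it was -1.30, 1.40 and -0.96. PSAT1 and PEG10 were higher with shRNA 1 than with shRNA 2, by 1.92 and 1.29, and CCNG1 by 0.69. EDEM1 and CITED2 were lower, by -1.05 and -0.48. In all 16 of these genes the 2 shRNA 1 libraries lay on one side of the scramble libraries and the 2 shRNA 2 libraries on the other. That separation follows largely from how the genes were chosen.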

How the results depend on the processing

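Size factors, limma-voom, filters on low counts, thinning to the lowest total, the compared groups alone, and leaving out any 1 library kept every count of calls within 1.5 times its value. DESeq2 called 2869 genes in shRNA 1 against scramble, 1319 of them higher. With all 12 libraries in the fit, 1258 were called, 588 higher and 670 lower, and the counts for shRNA 1 against shRNA 2, shRNA 1 against vector and scramble against vector were 1909, 1742 and 2039; the cause was not tested. A test against a 1.5-fold change, which asks for more by construction, called 198 genes (94 higher and 104 lower), and 296, 278 and 498 in those 3 comparisons. Leaving out 1 library gave 3426 to 4239 calls for shRNA 1 against scramble (1620 to 2049 higher, 1773 to 2190 lower), 881 to 939 changed at least 1.5-fold, and 3978 to 5110, 4144 to 5357 and 4282 to 5670 for the other 3 comparisons; a lone library is then assumed to vary like the other groups.

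With the mean of scramble and vector as the control, 4524 genes were called, of which 3025 were also called against scramble. Of 113 tested genes that are named, 88 kept their direction and side of the threshold under that control and 8 changed sign: CSF1R (0.59), CXCL5 (0.41), IL1B (0.33), MMP2 (0.12), IL6 (0.0049), ENO1 (-0.11), ENO2 (-0.17) and NDRG1 (-0.31). The replicate number as a block called 4129 genes and changed no named gene's call. Deviations of same-numbered shRNA 1 and scramble libraries correlated at -0.0646 over 9507 genes. Among the pairs of knockdown-arm groups this ran from -0.166 (shRNA 2 and scramble) to 0.124 (scramble and vector). Whether same-numbered libraries shared a batch was not tested. KRT8 lost its call without scramble replicate 2 (0.063), without either shRNA 1 library, and by DESeq2. With all 12 libraries in the fit, 12 of the named genes kept their direction but lost their call: AGO2, CD68, CXCL5, ENO1, HAS3, IL6ST, KRT8, LIFR, PHLDA3, RPL4, TAP1 and VIM, at edgeR adjusted p 0.056 to 0.64. Depth limits genes of a few CPM most: MEST had an SE of 0.23, against 0.04 for P4HA1.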
